A study of Homo sapiens with 6 samples.

Results

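The circadian clock genes described here are the 10 rows of the deposited FPKM table named *CLOCK*, *ARNTL*, *PER1*, *PER2*, *PER3*, *CRY1*, *CRY2*, *NR1D1*, *NR1D2* and *DBP*, out of 58735 genes in the table. They were chosen by name, and all 10 were found once. FPKM is the number of fragments per kilobase of gene, scaled to the sequencing depth. The length is the gene length of the deposited table and may differ from that of the RNA expressed. Orders and sums across genes rest on these lengths, which are the same for every library. RNA was sequenced from TPC-1 cells, a human papillary thyroid carcinoma line, in 3 wild strain libraries (TPC-1) and 3 libraries of cells overexpressing *RRM2*, the small subunit of ribonucleotide reductase (RRM2-OE-TPC-1). In the latter a lentiviral vector, LV18, carried full-length *RRM2* under a CMV promoter, and infected cells were selected with puromycin. The wild strain is labelled WT, and no empty-vector library was analysed here, so infection, selection and *RRM2* itself cannot be told apart. The sources used here do not say whether the selected cells were a pool or 1 clone, nor at what hour or density the cultures were harvested. The replicates are described as biological triplicates, and each group was sampled without a time course, so a change in mean level and a shift of phase cannot be told apart. In these bulk libraries, fewer cells expressing a gene and less of its RNA per cell cannot be told apart either.

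The libraries held 14317091 to 17084067 reads on genes, and *RRM2* was at 9.17, 9.05 and 8.52 FPKM in TPC-1 and at 50.4, 47.5 and 47.2 FPKM in RRM2-OE-TPC-1. The genotype labels of the replicates 2 and 3 of RRM2-OE-TPC-1 name RRM3 and RRM4 in place of *RRM2*, while their titles name *RRM2*, and *RRM2* was high in both. The thyroid markers *PAX8*, *FOXE1* and *HHEX* were expressed, whereas *NKX2-1* was at 0 in all 6 libraries and *TG* and *TSHR* never passed 0.113 FPKM. Summed over the 7 thyroid markers, levels were 73.9 to 77.8 FPKM in TPC-1 against 64.2 to 67.5 FPKM in RRM2-OE-TPC-1, and over 5 epithelial markers 42.8 to 47.1 and 88.3 to 90.7. Most of the thyroid sum was *PAX8* (mean 69.3 against 58.5 FPKM), and *HHEX* was higher in RRM2-OE-TPC-1 (2.47 against 4.61 FPKM). Most of the epithelial sum was *KRT18* (41.2 against 85.2 FPKM). *KRT8* was at 2.56 against 3.48 FPKM and *KRT7* at 1.18 against 1.01 FPKM, while *KRT19* and *EPCAM* never passed 0.125 FPKM. Markers of other cells were low in both groups, with sums of at most 0.965 FPKM for 4 fibroblast genes, 0.0355 for 3 leukocyte genes and 1.05 for 3 endothelial genes. The sum of the endothelial markers lay at 0.873 to 1.05 FPKM in TPC-1 against 0.0667 to 0.115 FPKM in RRM2-OE-TPC-1, a difference carried by *PECAM1* alone, while *CDH5* and *VWF* had at most 7 reads in any library. The part of any of these differences in the clock gene results was not tested. Chi-square per degree of freedom over genes was 1.82 to 6.11 between libraries of a group and 80.5 to 89.8 between groups, and replicate 1 of RRM2-OE-TPC-1 stood farther from the others of its group (5.38 and 6.11) than these from each other (1.82).

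The mammalian clock is a set of transcriptional feedback loops that runs in most cells, cultured cells included. CLOCK and ARNTL (also called BMAL1) bind E-box elements as a dimer and switch on the *PER*, *CRY*, *NR1D* and *DBP* genes. The PER and CRY proteins then enter the nucleus and block CLOCK and ARNTL, while the NR1D proteins (REV-ERB) repress *ARNTL* through ROR elements (RORE) and DBP carries the rhythm to genes with D-box elements. In a population of cells that are not synchronized, single-cell rhythms average out and bulk RNA reports a mean level.

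Promoter sequences are shown for the members whose windows held the E-box or D-box. These loops also act through the RORE, but windows that held its core alone are not printed. The windows run from 250 bases before the RefSeq transcription start to 10 bases after it, on GRCh38.p14 and 5′ to 3′ on the gene's strand, and all 10 members had at least 1 window, 15 in all. Capitals mark the letters that match a motif on either strand: the E-box CACGTG, the D-box TTATGTAA or TTACGTAA, and the RORE core AGGTCA. The search also covered the cAMP response element TGACGTCA and went to 50 bases after the start. No motif contains another, though the E-box, the second D-box and the cAMP response element share the core ACGT. The printed windows are *PER1* at chr17:8152395-8152654 on the minus strand, *PER2* at chr2:238288601-238288860 on the minus strand, the first of the *PER3* windows at chr1:7784041-7784300 on the plus strand and the second *NR1D2* window at chr3:23945871-23946130 on the plus strand.
PER1: PER1
PER2: PER2
PER3: PER3
NR1D2: NR1D2

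In the *PER1* window an E-box began 173 bases before the start and a RORE core 144 bases before it. The *PER2* window held a D-box beginning 3 bases before the start, and the *PER3* window a D-box beginning 177 bases before it. The *NR1D2* window held E-boxes beginning 155 and 105 bases before the start and a D-box beginning 194 bases before it. Both *CRY2* windows and the first *ARNTL* window held a RORE core, the latter 31 bases after the start. No motif was found in 8 of the 15 windows, and no member's window held the cAMP response element. Over all 35116 RefSeq promoter windows of this length, 7.26% held the E-box, 1.01% the D-box, 13.8% the RORE core and 1.85% the cAMP response element. These matches describe letters in a window and are not measurements of binding.

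Most clock genes differed between the cell lines, and in both directions. With limma on log2(FPKM + 0.1), adjusted over 13621 tested genes, 8 of the 10 members passed an adjusted p of 0.05, against 67.6% of all tested genes. *CRY1* and *CRY2* were higher in RRM2-OE-TPC-1 (34.9% of all tested genes were), and *ARNTL*, *PER1*, *PER3*, *NR1D1*, *NR1D2* and *DBP* were lower (32.7% of all tested genes were). *CLOCK* and *PER2* did not pass. A further threshold of 1 on the absolute log2 fold change was passed by *DBP* and *PER3*, both lower, against 11.5% of all tested genes, with 6.97% lower and 4.48% higher. With a pseudocount of 1 in place of 0.1, neither passed it (log2 fold changes of -0.88 and -0.90). All 10 members were tested, but *DBP* reached the FPKM minimum of 0.5 only in the TPC-1 libraries, that is, only through the group in which it was high. The values of the groups did not overlap for 9 members, *NR1D1* being the exception, against 72.2% of all tested genes. The median log2 fold change was -0.34 over the members and 0.01 over all tested genes. The share of clock genes that passed the adjusted p thus has to be read against a comparison in which most tested genes passed.

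**Figure D1:**
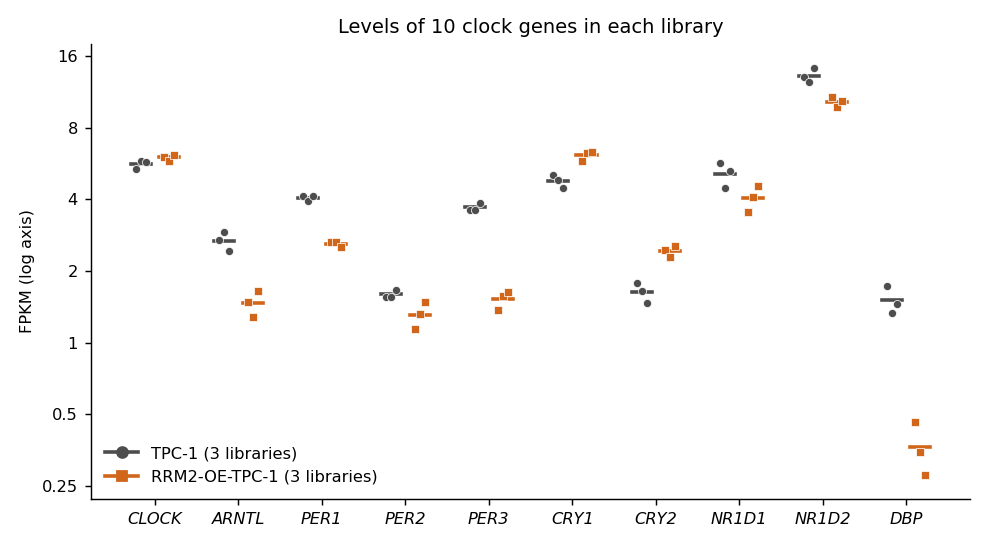
FPKM of the 10 clock genes (log axis) in each library, with points for libraries and horizontal bars for group means, n = 3 per group. The groups lie farthest apart for *DBP* and *PER3*, overlap for *NR1D1*, and *CRY1* and *CRY2* are the members that passed the test in the higher direction.

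In TPC-1 cells the member with the highest FPKM was *NR1D2*, followed by *CLOCK*, *NR1D1*, *CRY1*, *PER1*, *PER3*, *ARNTL*, *CRY2*, *PER2* and *DBP*. The ranges of *CLOCK*, *NR1D1* and *CRY1* overlapped from neighbour to neighbour, as did those of *CRY2*, *PER2* and *DBP*, so their order was not resolved. In RRM2-OE-TPC-1 the order was *NR1D2*, *CRY1*, *CLOCK*, *NR1D1*, *PER1*, *CRY2*, *PER3*, *ARNTL*, *PER2* and *DBP*. Here *CRY1* overlapped *CLOCK*, *PER1* overlapped *CRY2*, and *PER3*, *ARNTL* and *PER2* overlapped from neighbour to neighbour. *CRY2* thus stood below *PER1*, *PER3* and *ARNTL* in TPC-1, and above *PER3* and *ARNTL* in RRM2-OE-TPC-1, where its highest library alone reached the range of *PER1*.

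Of the activating pair, *ARNTL* fell and *CLOCK* did not pass the test. *CLOCK* (ENSG00000134852, chr4:55427903-55547138, minus strand), the bHLH-PAS transcription factor that binds DNA with ARNTL, was at 5.35, 5.80 and 5.75 FPKM in TPC-1 and 6.03, 5.81 and 6.17 FPKM in RRM2-OE-TPC-1. The groups only just failed to overlap, and the log2 fold change was 0.09 (SE 0.0566, 95% interval -0.04 to 0.22, limma adjusted p 0.192). *CLOCK* was measured with 1025 to 1170 reads per library. *ARNTL* (ENSG00000133794, chr11:13276652-13387266, plus strand) was at 2.70, 2.91 and 2.43 FPKM in TPC-1 and 1.48, 1.28 and 1.64 FPKM in RRM2-OE-TPC-1. Every RRM2-OE-TPC-1 library lay below every TPC-1 library, and the mean was 45.2% lower (2.68 ± 0.242 against 1.47 ± 0.184 FPKM, SD, n = 3). The log2 fold change of *ARNTL* was -0.83 (SE 0.118, limma adjusted p 3.68e-04), and 10.1% of all tested genes were as low or lower.

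The paralogs of this pair are part of a list of 39 other clock pathway genes. *ARNTL2*, which can take the place of ARNTL in the dimer, was at 6.07, 6.08 and 6.42 FPKM in TPC-1 and 12.2, 12.5 and 12.4 FPKM in RRM2-OE-TPC-1. It thus had the higher FPKM of the ARNTL paralogs in both groups, and it rose by a log2 fold change of 0.98 (limma adjusted p 7.29e-07) where *ARNTL* fell. The log2 ratio of *ARNTL* to *ARNTL2* was -1.14, -1.04 and -1.37 in TPC-1 against -2.96, -3.19 and -2.84 in RRM2-OE-TPC-1. The mean ratio differed by -1.81, and the groups did not overlap. With 3 libraries against 3, the smallest p that the exact two-sided permutation test can give is 0.1, which this ratio reached (0.117 adjusted over 7 paralog pairs). The summed FPKM of *ARNTL* and *ARNTL2*, a sum chosen after its values were seen, was 8.87 ± 0.113 for TPC-1 against 13.8 ± 0.185 for RRM2-OE-TPC-1 (SD, n = 3). *NPAS2*, the paralog of *CLOCK*, was at 3.70, 3.46 and 3.17 FPKM in TPC-1 and 2.85, 2.97 and 3.03 FPKM in RRM2-OE-TPC-1. Its log2 fold change was -0.22 (limma adjusted p 0.0402). The summed FPKM of *CLOCK* and *NPAS2*, also chosen after its values were seen, was 9.08 ± 0.173 and 8.95 ± 0.224, with overlapping groups. The log2 ratio of *CLOCK* to *NPAS2* was 0.70 ± 0.161 and 1.00 ± 0.0556, without overlap (difference 0.31, exact permutation p 0.1, adjusted 0.117, n = 3).

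The 3 period genes encode the scaffold of the repressor complex, and *PER1* and *PER3* fell while *PER2* did not pass the test. *PER3* (ENSG00000049246, chr1:7784320-7845177, plus strand) was at 3.61, 3.62 and 3.87 FPKM in TPC-1 and 1.38, 1.57 and 1.63 FPKM in RRM2-OE-TPC-1. The groups were far apart, the highest RRM2-OE-TPC-1 library lying below the lowest TPC-1 library, and the mean was 58.8% lower. The log2 fold change of *PER3* was -1.23 (SE 0.0905, limma adjusted p 8.63e-06), and 4.65% of tested genes were as low or lower. *PER3* exons share 868 bases, 10.7% of its length, with *UTS2* on the other strand and 482 bases with Z98884.1. *UTS2* was itself at a mean of 2.67 FPKM in TPC-1 and 1.56 FPKM in RRM2-OE-TPC-1. The libraries were made with a directional kit but strand use in counting is not stated in the sources used here, so the share of such reads in *PER3* was not tested.

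*PER1* (ENSG00000179094, chr17:8140472-8156506, minus strand), an early-response clock gene that glucocorticoid and cAMP also induce, was at 4.12, 3.93 and 4.14 FPKM in TPC-1 and 2.65, 2.64 and 2.52 FPKM in RRM2-OE-TPC-1. Libraries of a group lay close together, and the mean was 36.0% lower in RRM2-OE-TPC-1. The log2 fold change of *PER1* was -0.62 (SE 0.0663, limma adjusted p 6.72e-05), and 15.1% of all tested genes were as low or lower. *PER2* (ENSG00000132326, chr2:238244038-238290102, minus strand), needed for a stable rhythm in mice, was at 1.56, 1.56 and 1.67 FPKM in TPC-1 and 1.14, 1.32 and 1.48 FPKM in RRM2-OE-TPC-1. All 3 RRM2-OE-TPC-1 libraries lay below all 3 TPC-1 libraries, but they spread more widely. The log2 fold change of *PER2* was -0.27 (SE 0.120, 95% interval -0.55 to 0.01, limma adjusted p 0.0752), with 113 to 183 reads per library. The call for *PER2* turned on the processing: without replicate 3 of RRM2-OE-TPC-1, the library with the highest *PER2* of its group, the limma adjusted p was 0.0390. Without replicate 1 of RRM2-OE-TPC-1, the library that stood apart, the log2 fold change was -0.18 and the limma adjusted p 0.214.

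The log2 fold changes of the period genes thus differed in size. The log2 ratio of *PER1* to *PER3* went from 0.13 ± 0.0478 in TPC-1 to 0.74 ± 0.150 in RRM2-OE-TPC-1, and that of *PER2* to *PER3* from -1.16 ± 0.00320 to -0.21 ± 0.0679 (SD, n = 3). The log2 ratio of *PER1* to *PER2* went from 1.30 ± 0.0453 to 0.95 ± 0.211. None of these ratios overlapped between groups, and each had an exact permutation p of 0.1 (0.117 adjusted), the smallest that this test can give. The ratio of *PER2* to *PER3* follows from the other ratios, so they are not separate results.

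The cryptochromes, the repressors that bind CLOCK and ARNTL directly, both rose. *CRY1* (ENSG00000008405, chr12:106991364-107093829, minus strand) was at 5.04, 4.84 and 4.47 FPKM in TPC-1 and 5.82, 6.25 and 6.31 FPKM in RRM2-OE-TPC-1. The groups did not overlap, the mean was 28.0% higher and the log2 fold change was 0.35 (SE 0.0655, limma adjusted p 0.00167). *CRY2* (ENSG00000121671, chr11:45847118-45883248, plus strand) was at 1.79, 1.64 and 1.47 FPKM in TPC-1 and 2.45, 2.29 and 2.54 FPKM in RRM2-OE-TPC-1. It too was higher in every RRM2-OE-TPC-1 library, by 48.8% on the mean, with a log2 fold change of 0.55 (SE 0.101, limma adjusted p 0.00158). The changes were not unusually large for these libraries, since 25.9% of all tested genes had a log2 fold change at or above that of *CRY1* and 15.7% at or above that of *CRY2*. The log2 ratio of *CRY1* to *CRY2* was 1.50 ± 0.0501 for TPC-1 against 1.30 ± 0.101 for RRM2-OE-TPC-1 (exact permutation p 0.1, adjusted 0.117, n = 3). The difference of -0.20 was -0.08 with a pseudocount of 1.

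*PER1* and *PER3* thus fell while both cryptochromes rose. Summed over *CRY1* and *CRY2*, FPKM was 6.83, 6.48 and 5.94 in TPC-1 against 8.28, 8.54 and 8.85 in RRM2-OE-TPC-1, and over the 3 period genes it was 9.30, 9.11 and 9.68 and then 5.16, 5.53 and 5.62. The ratio of the cryptochrome sum to the period sum was 0.735, 0.711 and 0.614 in TPC-1 against 1.604, 1.54 and 1.57 in RRM2-OE-TPC-1. In FPKM the period sum was the larger in every TPC-1 library and the cryptochrome sum in every RRM2-OE-TPC-1 library. Which sum is the larger depends on the gene lengths by which FPKM divides, so an order of transcript numbers was not measured. These sums and their ratio were chosen after the values were seen and carry no test.

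**Figure D2:**
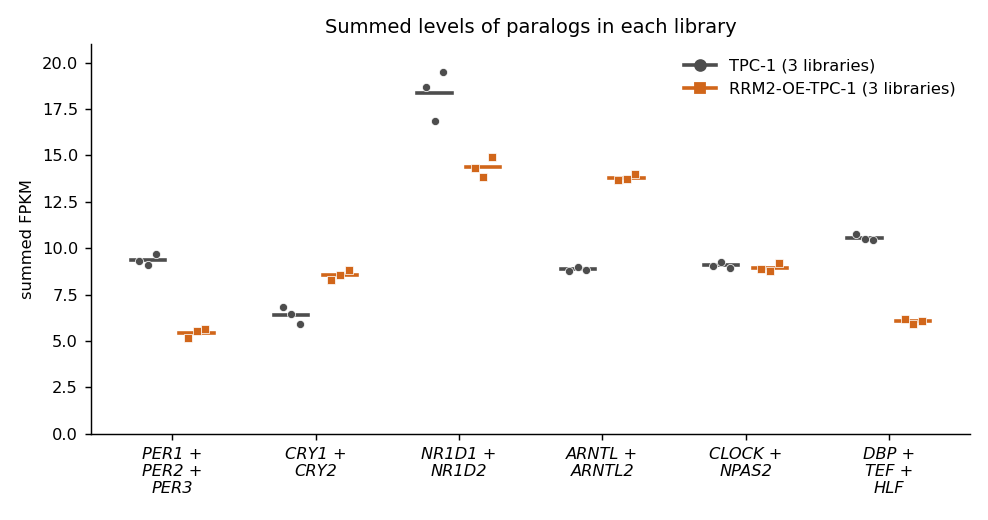
Summed FPKM of clock paralogs in each library (linear axis from 0), with points for libraries and horizontal bars for group means, n = 3 per group. The sums were chosen after their values were seen and carry no test. The period sum, the *NR1D1* and *NR1D2* sum and the *DBP*, *TEF* and *HLF* sum are lower in all 3 RRM2-OE-TPC-1 libraries. The cryptochrome and *ARNTL* sums are higher in all 3, and the *CLOCK* and *NPAS2* sums overlap.

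In the second loop, the repressors of *ARNTL* transcription were lower. A log2 fold change as low or lower was found in 25.8% of all tested genes for *NR1D2* and in 27.4% for *NR1D1*. *NR1D2* (ENSG00000174738, chr3:23945260-23980618, plus strand), encoding REV-ERB beta, was at 13.0, 12.4 and 14.3 FPKM in TPC-1 and 10.8, 9.75 and 10.4 FPKM in RRM2-OE-TPC-1. The groups did not overlap, the mean was 22.1% lower and the log2 fold change was -0.36 (SE 0.0625, limma adjusted p 0.00118). *NR1D1* (ENSG00000126368, chr17:40092787-40100725, minus strand), encoding REV-ERB alpha, was at 5.69, 4.46 and 5.25 FPKM in TPC-1 and 3.54, 4.11 and 4.55 FPKM in RRM2-OE-TPC-1. The groups overlapped, because the lowest TPC-1 library lay below the highest RRM2-OE-TPC-1 library. The log2 fold change of *NR1D1* was -0.33 (SE 0.115, limma adjusted p 0.0334), and this call rested on single libraries. The adjusted p was 0.111 without replicate 1 and 0.0860 without replicate 3 of TPC-1, and 0.1002 without replicate 1 and 0.0652 without replicate 2 of RRM2-OE-TPC-1. It was 0.0992 without a filter on low values. *NR1D1* also shares 263 exon bases, 9.49% of its length, with *THRA* on the other strand, which was at a mean of 2.43 FPKM in TPC-1 and 2.25 FPKM in RRM2-OE-TPC-1. The log2 ratio of *NR1D1* to *NR1D2* was -1.35 ± 0.151 and -1.33 ± 0.219 (exact permutation p 0.9, n = 3), with overlapping groups. Of the receptors that activate through the same element, *RORA* had at most 3 reads in any library and *RORB* at most 1. *ARNTL*, the target of this loop, was lower together with *NR1D2*.

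The output factor *DBP* had the largest absolute log2 fold change among the members, except with a pseudocount of 1, where *PER3* lay slightly lower (-0.90 against -0.88). *DBP* (ENSG00000105516, chr19:48630030-48637438, minus strand), a PAR bZIP activator of D-box genes, was at 1.72, 1.34 and 1.46 FPKM in TPC-1 and 0.465, 0.348 and 0.278 FPKM in RRM2-OE-TPC-1. These values stood on 188, 147 and 152 reads in TPC-1 and 44, 39 and 29 reads in RRM2-OE-TPC-1. The groups were far apart, and the mean FPKM was 4.14-fold higher in TPC-1. On the log2(FPKM + 0.1) scale, which understates the change of low genes, the log2 fold change was -1.80 (SE 0.189, 95% interval -2.24 to -1.37, limma adjusted p 6.13e-05). Of all tested genes, 1.75% were as low or lower, but *DBP* was among the tested genes only through the TPC-1 libraries, where it was high. *DBP* exons share 661 bases, 10.1% of its length, with *SPHK2* on the other strand, which was at a mean of 2.27 FPKM in TPC-1 and 2.54 FPKM in RRM2-OE-TPC-1.

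The other factors of the D-box were lower as well. *TEF* and *HLF*, the PAR bZIP paralogs of *DBP*, went from 5.99 ± 0.265 to 3.31 ± 0.210 FPKM (log2 fold change -0.84) and from 3.06 ± 0.272 to 2.39 ± 0.204 FPKM (-0.34), SD, n = 3. The 3 paralogs together summed to 10.6 ± 0.180 FPKM in TPC-1 against 6.07 ± 0.132 FPKM in RRM2-OE-TPC-1, a sum also chosen after its values were seen. *NFIL3* (E4BP4), which represses through the same element, was at 26.3, 24.0 and 25.2 FPKM in TPC-1 and 8.63, 9.60 and 8.58 FPKM in RRM2-OE-TPC-1. It fell by 1.48 on the log2 scale (limma adjusted p 3.20e-07), so that both the activators and the repressor of the D-box were lower. *BHLHE41* (DEC2), an E-box repressor, went from 2.75 ± 0.0498 to 1.42 ± 0.216 FPKM (log2 fold change -0.92), and *BHLHE40* (DEC1) from 16.6 ± 1.34 to 13.5 ± 0.843 FPKM (-0.29).

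**Figure D3:**
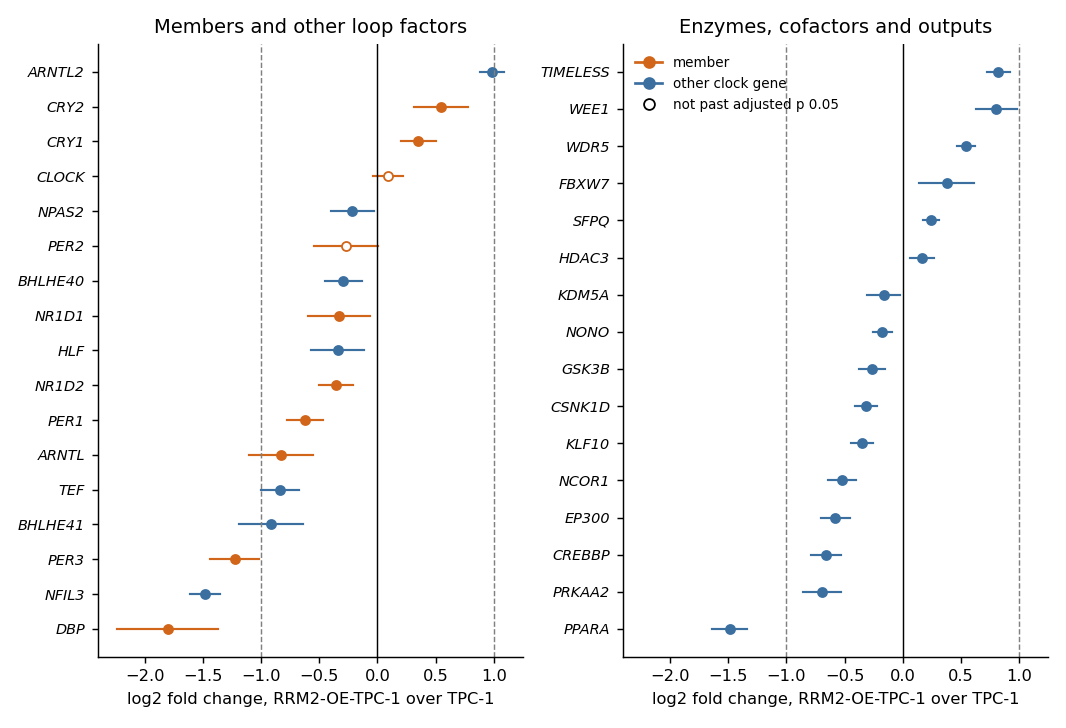
Log2 fold changes of RRM2-OE-TPC-1 over TPC-1 from limma, with 95% intervals, for the 10 members and the 23 genes of the other clock pathway list that passed the test. Filled points passed an adjusted p of 0.05, and dashed lines mark a log2 fold change of 1 in either direction. Among loop factors *ARNTL2*, *CRY2* and *CRY1* lie above 0 and passed, and the open points are *CLOCK* and *PER2*.

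Of the 39 other clock pathway genes, 33 were tested, and 23 of these passed the adjusted p (69.7%, close to the 67.6% of all tested genes), 7 higher and 16 lower. Among all tested genes, 34.9% passed as higher and 32.7% as lower, the shares against which the counts by direction below are also to be read. The median log2 fold change was -0.11 over the list and 0.01 over all tested genes. All 7 tested loop transcription factors passed, *ARNTL2* higher and 6 lower. The genes not tested for low levels included *RORA*, *RORB*, *CIART*, *USP2* and *PPARGC1A*. Of the 12 tested enzymes that modify and degrade clock proteins, 4 passed, 1 higher and 3 lower. *CSNK1D*, a kinase of the PER proteins, went from 20.1 ± 0.852 to 16.1 ± 0.229 FPKM (log2 fold change -0.32), whereas the log2 fold change of its paralog *CSNK1E* was 0.04 and did not pass. *PRKAA2*, a catalytic subunit of AMPK, a kinase that destabilizes CRY proteins, went from 5.16 ± 0.230 to 3.15 ± 0.174 FPKM (-0.70). The other catalytic subunit, *PRKAA1*, had the higher FPKM, at 15.2 ± 0.2498 and 15.2 ± 0.329 with overlapping groups, and did not pass. *FBXW7*, a ubiquitin ligase subunit, went from 2.16 ± 0.108 to 2.84 ± 0.338 FPKM (0.38).

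Among 10 tested partners and cofactors, 4 were higher and 5 lower, against 34.9% and 32.7% of all tested genes. *TIMELESS*, which also acts at replication forks, rose from 8.17 ± 0.159 to 14.5 ± 0.473 FPKM (log2 fold change 0.82), and *WDR5*, a subunit of histone methyltransferase complexes, from 27.3 ± 0.431 to 39.8 ± 1.03 FPKM (0.55). *CREBBP* and *EP300*, the acetyltransferase coactivators of CLOCK and ARNTL, fell from 17.3 ± 0.830 to 10.9 ± 0.629 FPKM (-0.66) and from 14.8 ± 0.651 to 9.85 ± 0.526 FPKM (-0.58). *NCOR1*, the corepressor that the NR1D proteins recruit, fell from 12.8 ± 0.155 to 8.90 ± 0.558 FPKM (-0.52). Of the 4 outputs, *PPARA*, a nuclear receptor of fatty acid metabolism, went from 5.90 ± 0.115 to 2.04 ± 0.0663 FPKM (-1.49). *PPARA* and *NFIL3*, both lower, were the 2 of 33 tested list genes past both thresholds. Of all tested genes, 11.5% passed both, with 6.97% lower. *KLF10* went from 21.4 ± 0.484 to 16.8 ± 0.630 FPKM (-0.35). *WEE1*, the kinase that restrains entry into mitosis and is also a cell cycle gene, rose from 2.45 ± 0.0361 to 4.36 ± 0.330 FPKM (0.80). *NAMPT* did not pass.

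Because *PER1* also answers to glucocorticoid and cAMP, 10 such genes were set beside it. Of 6 glucocorticoid-induced genes, 5 were tested and all passed (67.6% of all tested genes did), but in both directions. *TSC22D3* (GILZ) went from 9.50 ± 0.810 to 2.03 ± 0.294 FPKM (log2 fold change -2.18) and *KLF9* from 4.29 ± 0.458 to 1.03 ± 0.129 FPKM (-1.96), in the direction of *PER1*. *SGK1* went from 0.189 ± 0.0294 to 1.50 ± 0.162 FPKM (2.47), *FKBP5* from 3.71 ± 0.0988 to 5.32 ± 0.123 FPKM (0.51) and *DUSP1* from 22.8 ± 0.798 to 30.6 ± 0.891 FPKM (0.42). *SGK1* reached the FPKM minimum only in RRM2-OE-TPC-1, and *ZBTB16* was at 0 in all 6 libraries. Of the cAMP-induced genes, *NR4A1* (-0.35) and *CREM* (-0.29) were lower, and *NR4A2* and *FOS* were too low to be tested. The part of hormone or cAMP signalling in the *PER1* difference was not tested.

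**Figure D4:**
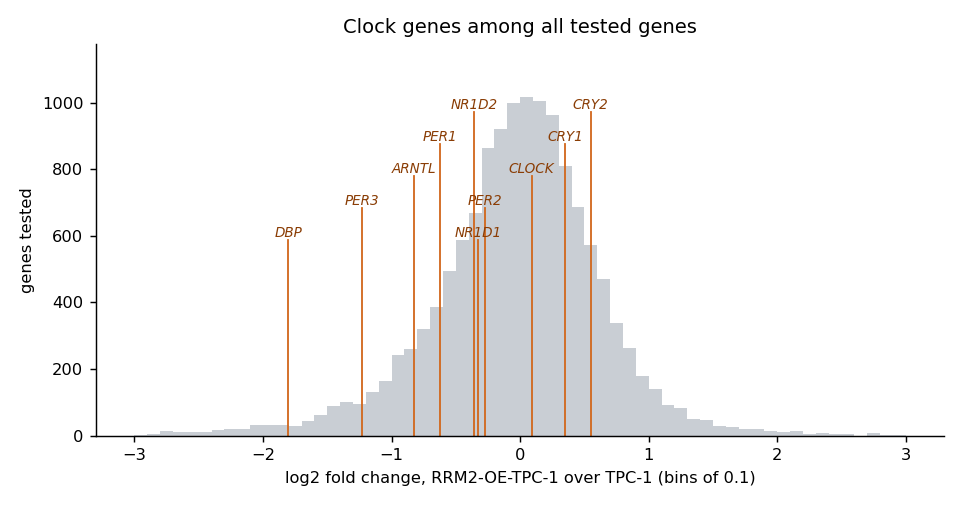
Histogram of the log2 fold changes of all tested genes in bins of 0.1 (65 of the 13621 lie beyond the axis), with the 10 clock genes marked by vertical lines whose heights carry no value. *DBP* and *PER3* lie in the lower tail, and the other members lie within the body of the distribution.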

How the data were processed

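The members and gene lists were chosen with earlier results of these data known. The authors deposited FPKM values, made with fastp trimming, HISAT2 2.0.5 alignment and featureCounts 1.5.0. The submitters' processing notes name GRCh38.p14. All 58735 identifiers matched GENCODE 29. The labels describe rRNA removal and RNase R digestion, the methods poly(A) selection, which could affect levels. Whole reads were recovered from FPKM and gene length (every value within 0.05 of a whole number). Genes with FPKM of at least 0.5 and at least 10 reads in at least 3 libraries were tested as log2(FPKM + 0.1) with limma 3.58.1 in R 4.3.3 (lmFit, eBayes with trend, all 6 libraries, group only), Benjamini-Hochberg adjusted over all tested genes. Paralog ratios used exact two-sided permutation tests. The procedure was run on simulated data with few or no changed genes and judged on calls past both thresholds. That simulation does not cover a comparison in which most genes pass, nor smaller changes called on the adjusted p alone. Named were all members, list genes past both thresholds and the 12 next largest changes past the adjusted p, and the glucocorticoid and cAMP lists. Genes sharing exons with *PER3*, *NR1D1* and *DBP* were named too. *CLOCK*, *PER1*, *PER2* and *CRY1* also share exon bases with other genes, at most 188 bases with any of them (2.73% of the length of *PER2*), and those genes are not named. *BHLHE40*, *HLF*, *NPAS2*, *CSNK1D*, *CSNK1E*, *PRKAA1*, *NAMPT* and list genes too low to test were added after their values were seen. Some list genes are not reported here. Scaling, filter, pseudocount, voom, protein-coding genes alone, replicate block and left-out libraries were alternatives.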

Additional observations from a re-analysis of the deposited data

How the results depend on the processing

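Over 15 alternatives and 10 members, 141 of 150 values kept their direction and side of the threshold, and none changed sign. *NR1D1* lost its call without a filter on low values (limma adjusted p 0.0992) and without 4 of the 6 libraries in turn. *PER2* gained one with library totals (0.0393), voom on recovered reads (0.0122), protein-coding genes alone (0.0478) and without replicate 3 of RRM2-OE-TPC-1. With a pseudocount of 1, 0 members and 716 of all tested genes passed both thresholds, against 2 and 1560. With that pseudocount the log2 fold changes of *DBP* and *PER3* were -0.88 and -0.90. Leaving out each library, 7 to 9 members passed the adjusted p, 2 passed both thresholds, and 20 to 22 and 2 to 3 other clock genes did. *ARNTL2* passed both without replicate 3 of TPC-1, and *BHLHE41* without replicate 3 of RRM2-OE-TPC-1 and with voom. All tested genes past the adjusted p numbered 8555 to 8772, and past both 1573 to 1608. The change in the log2 ratio of *NR1D1* to *NR1D2* ranged from -0.05 to 0.15. It turned negative without replicate 2 (-0.0231) or 3 (-0.0074) of TPC-1 and without replicate 2 (-0.0211) or 3 (-0.048) of RRM2-OE-TPC-1. That of *CRY1* to *CRY2* was -0.08 with a pseudocount of 1. The cause of these changes was not tested.

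Replicate numbers did not pair the samples: deviations of same-numbered libraries correlated at -0.011, -0.0060 and -0.055. With a replicate block, 8 members, and 4616 higher and 4318 lower genes, passed the adjusted p, and no call of a member changed. Counts of 29 to 44 reads limit the precision for *DBP* in RRM2-OE-TPC-1.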
